A study of Rattus norvegicus with 15 samples.

Results

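Rat alveolar epithelial type 2 (AT2) cells at isolation (day 0, D0) were compared with cells of the same isolation procedure after 8 days in culture (D8), which the labels call AT1-like. The comparison uses 6 of the 15 arrays of a culture time course, the 3 arrays labelled D0 and the 3 labelled D8, and reads them across all 13337 genes that the probe annotation names. The cells of both groups were from male rats and were purified as AT2 cells, with no agent added. The only labelled difference between the groups is the day. D0 cells had not been cultured, so the comparison takes in plating as well as time in culture. Whole-cell RNA was hybridized to Illumina RatRef-12 arrays, and a D8 array therefore reports the RNA of everything in the culture, in which fewer cells of a type and less RNA per cell cannot be told apart. Arrays are called here by slide and position. D0 consists of s1H and s1I on slide 1 and s3A on slide 3, D8 of s1G and s1J on slide 1 and s3I on slide 3, and levels on single arrays are always listed in that order. Slide 1 against slides 2 and 3 was kept as a block in a limma fit over all 15 arrays. Since both days have the same split over slides, the block leaves each change at the difference of the day means and alters only its error. The labels do not tell which purification an array came from. Purification and slide therefore cannot be told apart, and the p-values measure the spread between these arrays, which may be technical.

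AT2 cells are compact secretory cells that make, store and recycle the lipids and proteins of surfactant and that take part in the innate defence of the alveolus. AT1 cells are very flat, cover most of the alveolar surface, lie on a basement membrane and move salt and water. Cultured AT2 cells spread, lose their storage granules and take on AT1 features, which calls on the cytoskeleton, the secretory route, adhesion and metabolism as much as on the classical markers of either cell. The account that follows leaves surfactant genes, AT1 markers and TGFB genes aside and describes the rest.

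Between 7615 and 9087 of the 22523 probes were detected per array, meaning a detection p under 0.01 against the negative controls of that array, and the median raw signal ran from 171 to 190.2. Levels are VSN values, which behave as log2 of the signal for bright probes and flatten near background. Arrays of the same day correlated at a Pearson's r of 0.943 to 0.986 over the probes, and arrays of different days at 0.883 to 0.930. With p-values adjusted by the Benjamini-Hochberg method and a threshold of 0.05, limma called 5689 probes (25.3%), and among named genes 2381 of 13337 were higher at D8 (17.9%) and 1784 lower (13.4%), 31.2% in all. The days did not overlap for 35.7% of the named genes. With arrays scaled to a common median instead, 2996 named genes were higher and 1397 lower, so the balance of directions depends on the scaling. Of the 4165 named genes called, 2342 changed by at least 1 on the log2 scale and 4155 had the same sign on slide 1 and slide 3. The calls rest on these same arrays, so a shared sign was largely fixed by the call and does not test agreement between slides. The slide block lowered the median standard error of a change from 0.297 to 0.238. Of 12 AT2 markers measured, 9 were lower and none was higher, and of 17 AT1 markers 12 were higher and none was lower. Cav1 and Rtkn2, both AT1 markers, were detected on at most 1 array of each day and did not pass. Markers of other cells moved as well. Summed raw signal of 6 club and ciliated cell markers was 42708 to 49784 at D0 and 2922.7 to 6342.7 at D8, that of 6 erythroid markers went from 32730 to 50452 at D0 to 1023.4 to 2093.3 at D8, and that of 11 macrophage and leukocyte markers from 6683 to 15960 to 18814 to 32617. Of the 6 club and ciliated cell markers 5 were lower. The brightest, Scgb1a1, had a mean of 15.54 at D0 and 11.53 at D8 and weighs most in the sum. Tekt1, detected on 2 D8 arrays and no D0 array, was not called, with a change of 0.66. Of the 6 erythroid markers only Hba-a1 and Hbb were lower, by 8.17 and 8.28. The other 4 were not called, among them Ahsp, detected on all 6 arrays, with a change of -0.26. The fibroblast list is given below beside the matrix genes.

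**Figure D1:**
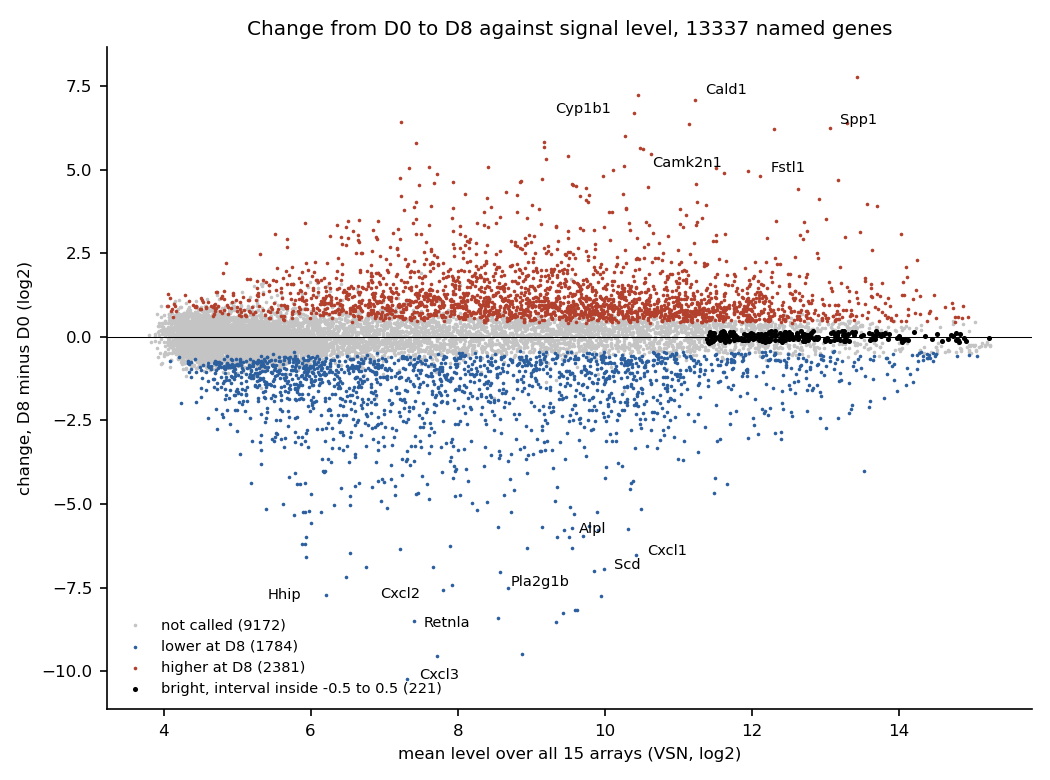
Change from D0 to D8 (log2, D8 minus D0) of 13337 named genes on the vertical axis against their mean VSN level (log2) over all 15 arrays on the horizontal axis, with 2381 genes higher at D8 in red, 1784 lower in blue, the rest in grey and 221 bright genes with an unchanged level in black. Decreases reach farther from 0 than increases.

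Genes detected on all 6 arrays with no overlap between the days allow measured folds. Outside the AT2, AT1 and TGFB lists, limma called 1373 such genes higher and 931 lower at D8. In all, 5165 named genes were detected on all 6 arrays. The 25 largest changes in each direction among the genes so called are described first. Secreted and matrix proteins were the first group among the increases. Fstl3, a secreted antagonist of activin, stood at 9.40, 9.81 and 9.29 on the D0 arrays and at 14.22, 14.33 and 14.06 on the D8 arrays. The days lay far apart with little spread within either, and the change of 4.70 (standard error 0.16, limma adjusted p = 3.7e-10) is a 26.0-fold rise. Fstl1, a secreted glycoprotein of the same family, rose by 4.80, Sparc, which binds collagen in basement membranes, by 3.91 and Fbln5, which organizes elastic fibres, by 3.56. Lox, the enzyme that crosslinks collagen and elastin, had levels of 10.36, 11.24 and 9.78 at D0 and 14.56, 14.47 and 14.27 at D8. It spread over more than 1 log2 unit at D0 and hardly at D8, and it rose by 3.97 (standard error 0.25, limma adjusted p = 7.1e-08). Spp1, encoding the adhesive glycoprotein osteopontin, rose by 6.24, and Clu, encoding the extracellular chaperone clusterin, by 4.12.

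Some matrix and stromal genes differed widely among the D8 arrays. Gpx3, a secreted glutathione peroxidase, stood at 6.87, 7.42 and 7.72 at D0 and at 13.21, 11.58 and 10.85 at D8, a 23.3-fold rise that is 14.7-fold without s1G. Lgals1, encoding the lectin galectin-1, rose 14.3-fold, and 9.18-fold without s1G. In both genes s1G was the highest D8 array and s3I the lowest. Fstl1 had this order too, at 14.53, 13.63 and 13.06 at D8. The same order was found in the summed raw signal of 10 fibroblast markers, which was 3275 to 4528 on the D0 arrays and 54217 on s1G, 27190 on s1J and 9790.4 on s3I. Of these 10 markers Col1a1, Col1a2, Col3a1 and Twist1 were called higher at D8 and none was lower. Twist1 was detected on no D0 array and on 1 D8 array, and its bound does not exceed 1-fold. Dcn, Lum, Pdgfra, Tcf21, Thy1 and Twist2 did not pass, Lum, Pdgfra and Tcf21 being detected on 1 D8 array each and on no D0 array. Of 2 mesothelial markers, Msln rose by 3.26 and Wt1 was detected on no array, and their summed raw signal, 388 to 438 at D0, also fell in this order at D8, with 3447 on s1G, 2095 on s1J and 875 on s3I. The part of fibroblasts or mesothelial cells in the rise of Gpx3, Lgals1 and Fstl1 was not tested.

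A second group of increases concerned ion transport and the cell cortex. Scnn1b and Scnn1g encode the beta and gamma subunits of the epithelial sodium channel ENaC, through which alveolar cells absorb sodium. Scnn1b stood at 8.73, 8.47 and 8.25 at D0 and at 12.63, 12.67 and 11.96 at D8, and Scnn1g at 7.35, 7.16 and 7.47 at D0 and at 11.23, 11.47 and 10.49 at D8. Both were lowest at D8 on s3I and still more than 2 log2 units above every D0 array. They rose by 3.94 (standard error 0.18) and 3.74 (standard error 0.24), with limma adjusted p of 4.4e-09 and 7.1e-08. Acta1, the skeletal alpha-actin, rose by 3.65, Mprip, which ties myosin phosphatase to actin, by 3.48 (limma adjusted p = 3.7e-09), Radil, an effector of the small GTPase Rap, by 3.73 and Myof, encoding myoferlin of plasma membrane repair, by 3.39. Actins share long stretches of sequence, so the value of Acta1 may hold signal of other actins.

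Promoter sequence was read for the leading genes, to see which short motifs the leading genes hold. RefSeq promoters of the rat assembly GRCr8 were at hand for 24 of the 37 leading higher genes and 28 of the 37 leading lower genes, and the 250 bases before the start were searched on both strands for 5 motifs. The AP-1 motif TGANTCA was held by 5 of the 24 higher genes (20.8%), 2 of the 28 lower genes (7.14%) and 6.34% of all 33469 promoters. The TEAD motif GGAATG was held by 5 of the 24 (20.8%), 2 of the 28 (7.14%) and 12.1% of all. With so few genes these shares are a description, and a match is not shown to be a site that is used. The CArG box, the element bound by serum response factor, was found in 1 of the 24, Acta1, against 1.5% of all promoters. The following are the windows of Scnn1g (chr1:185735975-185736224, plus strand), with its AP-1 match in capitals, and of Acta1 (chr19:68784195-68784444, minus strand), with its CArG box in capitals, shown because these genes stand for the channel and the actin group.
Scnn1g: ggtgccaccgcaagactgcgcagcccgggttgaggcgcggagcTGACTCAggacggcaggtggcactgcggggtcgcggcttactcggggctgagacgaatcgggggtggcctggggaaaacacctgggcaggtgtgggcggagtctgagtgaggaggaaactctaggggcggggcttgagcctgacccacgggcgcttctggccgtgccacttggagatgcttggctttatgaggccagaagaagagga
Acta1: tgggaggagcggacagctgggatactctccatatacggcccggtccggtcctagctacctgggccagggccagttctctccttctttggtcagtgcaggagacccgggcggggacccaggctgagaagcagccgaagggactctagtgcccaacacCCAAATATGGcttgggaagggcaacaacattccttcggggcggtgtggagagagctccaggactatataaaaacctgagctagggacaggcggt

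Lysosomal proteases and other enzymes were also among the leading increases. Ctsk, a protease that degrades collagen, stood at 7.99, 8.07 and 7.37 at D0 and at 11.98, 11.61 and 11.33 at D8, and Ctsd, the main aspartic protease of lysosomes, at 9.97, 10.91 and 9.05 at D0 and at 13.52, 14 and 12.73 at D8. For both genes s3A and s3I were the lowest arrays of their days. The summed raw signal of 11 macrophage and leukocyte markers had the array order of Ctsd. It was 11506, 15960 and 6683 on the D0 arrays and 26446, 32617 and 18814 on the D8 arrays. Ctsk was instead highest on s1G and lowest on s3I at D8, the order of the summed fibroblast markers given above. The part of either cell type in the rise of Ctsd and Ctsk was not tested. Ctsk rose by 3.83 (limma adjusted p = 3.7e-09) and Ctsd by 3.44 (limma adjusted p = 4.1e-07). Slc66a3, a member of a family of lysosomal membrane transporters, rose by 5.06, the glycosyltransferases Galnt18 and St3gal2 by 3.85 and 3.41, Enpp1, which makes pyrophosphate outside the cell, by 3.44 and Camk2n1, an inhibitor of the kinase CaMKII, by 4.96. Nrep and Smim22, the remaining members of the 25, rose by 4.05 and 3.43. Sema3b, a secreted guidance protein, stood at 7.78, 7.23 and 7.66 at D0 and at 12.19, 12.10 and 12.12 at D8, where the arrays were nearly equal, and rose by 4.58.

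Genes detected on all D8 arrays and on no D0 array have no measured D0 level. Their fold is a lower bound, in which each D0 signal under the lowest detected signal of its array is raised to it. Cald1, encoding the actin and myosin binding protein caldesmon, stood at 12.90, 12.57 and 12.32 at D8 and rose at least 59.8-fold (limma adjusted p = 7.3e-11). Cyp1b1, a cytochrome P450 induced through the aryl hydrocarbon receptor, stood at 12.57, 12.48 and 12.41 and rose at least 55.5-fold. Among 12 genes with the largest bounds were also Scn3b, a sodium channel beta subunit (at least 22.9-fold), Cdkn2b, the inhibitor p15 of the kinases CDK4 and CDK6 (at least 17.8-fold), Pla2g7, which breaks down platelet-activating factor (at least 13.5-fold), Onecut1, a transcription factor known from liver and pancreas (at least 12.5-fold), and Pamr1, a secreted protease-like protein (at least 10.5-fold). For Grem1, a secreted BMP antagonist, Gpx8, a peroxidase of the endoplasmic reticulum, and Actg2, a smooth muscle actin, the D8 arrays again fell in the order s1G, s1J and s3I. Their bounds of 15.8-, 15- and 11.5-fold were 10.1-, 8.66- and 6-fold without s1G and 24.1-, 23.9- and 23.7-fold without s3I. St6galnac2, a sialyltransferase, ran the other way, at 9.32, 10.58 and 12.18 at D8, with a bound of 16.0-fold that was 25.7-fold without s1G and 9.56-fold without s3I.

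**Figure D2:**
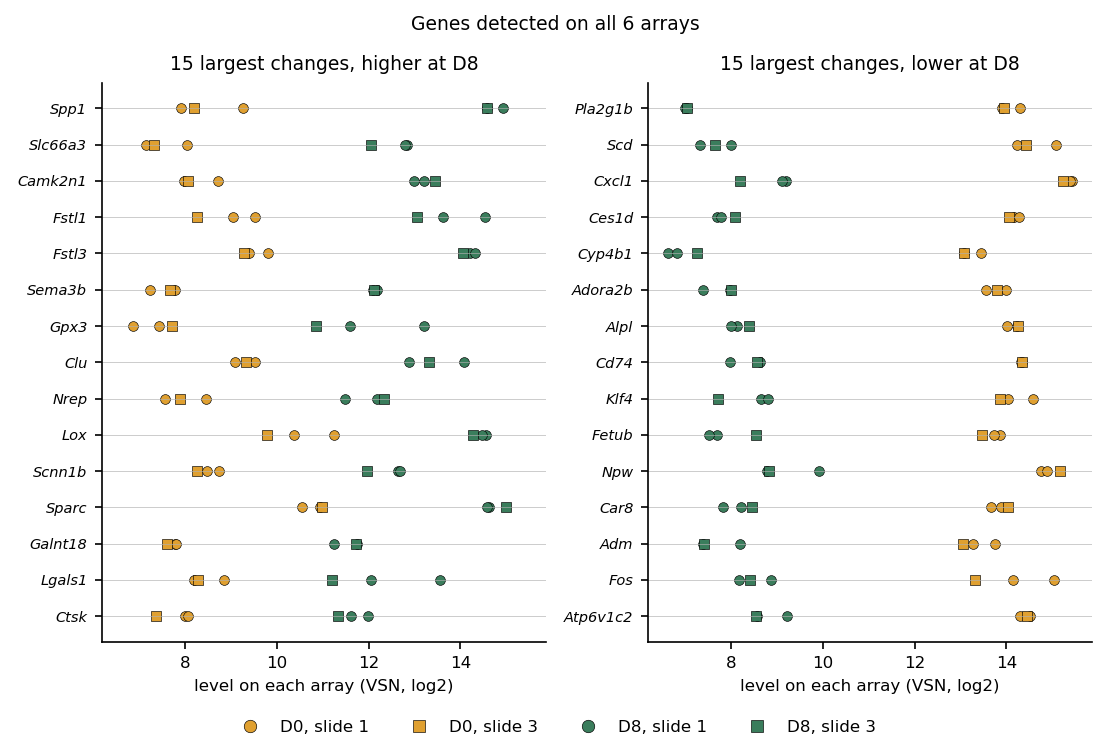
VSN level (log2) on each array of the 15 genes with the largest increase (left) and decrease (right) among genes detected on all 6 arrays, with D0 in orange and D8 in green, slide 1 as circles and slide 3 as squares. The genes were picked from those called, with no overlap between the days and outside the AT2, AT1 and TGFB lists. Gpx3 and Lgals1 spread most at D8.

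Decreases reached farther than increases. The leading ones among genes detected on all 6 arrays included lipid and xenobiotic enzymes. Pla2g1b, a secreted phospholipase A2, stood at 14.29, 13.91 and 13.95 at D0 and at 7, 7.03 and 7.05 at D8, so that the D8 arrays were nearly equal and 7.02 below D0 (standard error 0.24, limma adjusted p = 3.8e-10), a 130-fold fall. Scd, the desaturase that makes oleic acid, fell by 6.93, Ces1d, a carboxylesterase, by 6.31 and Cyp4b1, a cytochrome P450 of the lung, by 6.30. Alpl, the alkaline phosphatase of the cell surface, stood at 14.23, 14.02 and 14.25 at D0 and at 8.12, 8 and 8.40 at D8, a fall of 63.8-fold with the smallest p of these 25 decreases (limma adjusted p = 1.0e-10). Atp6v1c2, an isoform of the C subunit of the proton pump, fell by 5.64, and Car8, a carbonic anhydrase relative without catalytic activity, by 5.70. Fetub and Tmem163, also among these 25, fell by 5.77 and 4.72.

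Signalling genes were the second group of decreases. Adora2b, the low-affinity adenosine receptor, stood at 13.99, 13.56 and 13.80 at D0 and at 7.97, 7.39 and 8 at D8. It fell by 6 (standard error 0.34, limma adjusted p = 2.2e-08). The peptide precursors Npw (neuropeptide W) and Adm (adrenomedullin, a vasodilator) fell by 5.75 and 5.70, and Ppp1r1b, an inhibitor of protein phosphatase 1, by 5.23. Of the stress-induced transcription factors, Atf3 stood at 14.03, 14.75 and 13.18 at D0 and at 8.69, 9 and 8.35 at D8, with s3A the lowest D0 array. It fell by 5.31 (limma adjusted p = 2.9e-09), Klf4 by 5.77, Fos by 5.68 and Klf2 by 4.94. Fos had D0 levels of 14.14, 15.04 and 13.31, and s3A was again the lowest. Klf2 had a D0 level of 11.57 on s3A against 13.31 and 13.22 on slide 1. Cldn3, a tight junction protein, fell by 5.16, and Muc1, a cell surface mucin, stood at 7.97, 7.60 and 9.86 at D8 and fell 37.8-fold, or 61.1-fold without s3I.

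Immune genes were the third. The chemokines Cxcl1, Cxcl2 and Cxcl3, all encoded on chromosome 14, attract neutrophils and are similar in sequence, so their separate values are uncertain. Cxcl1 stood at 15.43, 15.40 and 15.24 at D0 and at 9.19, 9.10 and 8.19 at D8, a fall of 92.2-fold (limma adjusted p = 9.5e-09). Cxcl2 and Cxcl3 were detected on no D8 array and fell at least 136- and 356-fold. Cd74, the invariant chain of class II antigen presentation, fell by 5.95, and Il1b, the cytokine interleukin-1 beta, by 4.57. RT1-Ba, a class II chain, fell by 5.09 but belongs to a family of similar genes, and C4bpa, a regulator of complement, fell by 4.72. Retnla, a secreted resistin-like protein, fell at least 209-fold and Nr4a3, an immediate early nuclear receptor, at least 32.4-fold. The bound of Csf2, the cytokine GM-CSF, was 21.9-fold, and 35.1-fold without s1I and 13.6-fold without s3A. The kappaB motif, GGG and TTTCC with any pair of bases between them, was held by 3 of the 28 leading lower genes with a promoter (10.7%). None of the 24 higher genes and 1.3% of all promoters held it. The cyclic AMP response element TGACGTCA was held by 1 leading gene in each direction, Cdkn2b and RT1-Ba, and by 1.59% of all promoters. The kappaB motif occurred in Cxcl1, Cxcl2 and Cd74, of which the first 2 are similar in sequence and not independent. Both chemokine windows are shown, with every match to the motif on either strand in capitals, Cxcl1 at chr14:17479322-17479571 and Cxcl2 at chr14:17467256-17467505, both on the minus strand.
Cxcl1: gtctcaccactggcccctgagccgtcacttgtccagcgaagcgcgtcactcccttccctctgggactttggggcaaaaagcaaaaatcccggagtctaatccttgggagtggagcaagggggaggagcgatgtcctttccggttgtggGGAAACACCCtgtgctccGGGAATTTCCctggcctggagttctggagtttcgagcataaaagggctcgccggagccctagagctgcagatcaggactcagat
Cxcl2: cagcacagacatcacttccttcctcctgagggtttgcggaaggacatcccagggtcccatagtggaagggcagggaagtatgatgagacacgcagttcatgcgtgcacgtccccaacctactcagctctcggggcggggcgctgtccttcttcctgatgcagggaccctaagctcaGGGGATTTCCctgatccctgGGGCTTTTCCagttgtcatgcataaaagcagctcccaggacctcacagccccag

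Further genes went from a clear signal at D0 to none at D8. Hhip, which binds hedgehog ligands, fell at least 51.8-fold, Lgi3, a secreted leucine-rich protein, at least 56.2-fold, Cyp3a9, a cytochrome P450, at least 63.8-fold and Cldn10, a claudin that forms ion pores, at least 34.7-fold. Scgb3a1 and Scgb3a2, secretoglobins of airway secretory cells, fell at least 52.0- and 60.9-fold, and Hbb-b1, a haemoglobin chain whose copies are nearly identical, at least 77.5-fold. These last 3 belong with the airway and erythroid markers given above, and the part of such cells in them was not tested.

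Gene families were then read against the shares of all named genes, 17.9% higher and 13.4% lower, with a median change of 0.01. This background holds 5662 genes detected on none of the 6 arrays, and only 329 of the 4165 called genes were among those. Families with most genes detected can exceed it for that reason alone. Mitochondrial ribosomal proteins (56 of 59 detected on some array), COPI and COPII genes (36 of 43) and septins (11 of 13) are such families. Shares among detected genes alone were not compared. Tetraspanins, small membrane proteins that organize receptors into domains, had the highest share of increases, 10 of 21 (47.6%), with 4 lower. Their median was 0.72, or 0.34 with genes undetected on a day at their bound. Tspan6 stood at 9.34, 9.55 and 9.02 at D0 and at 12.67, 12.09 and 11.76 at D8, and Tspan3 at 10.56, 10.46 and 10.31 at D0 and at 13.03, 12.77 and 12.64 at D8. They rose by 2.87 and 2.37, with limma adjusted p of 1.3e-07 and 1.2e-07. Tspan5 rose by 2.85 and Tspan4 by 1.75, while Tspan1, Tspan12 and Tspan8, all expressed in epithelia, fell by 1.12, 0.98 and 0.96.

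Among caspases and BCL2 family genes, which carry out and control apoptosis, 13 of 33 were higher (39.4%) and 6 lower, with a median of 0.33. The members that moved most fell. Cflar, the decoy of caspase 8 known as FLIP, stood at 12.13, 12.38 and 12.48 at D0 and at 7.46, 7.35 and 6.69 at D8, a fall of 5.16 (standard error 0.23, limma adjusted p = 3.1e-09). Birc3, an inhibitor of apoptosis and target of NF-kappaB, fell by 3.04 and Bcl2l14, a BCL2 relative, by 3.13. Among the increases Bak1, which permeabilizes mitochondria, rose by 1.84, Casp6, an executioner caspase, by 1.42, Casp8, the initiator that Cflar holds in check, by 1.42 and Bmf, a BH3-only protein, by 2.34, Casp8 and Bmf being detected on 1 D0 array each. The change of Bmf was 1.52 without s3A, the array with its lowest level. Pmaip1, also a BH3-only protein, fell, from detection on 2 D0 arrays to none at D8.

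The Hippo pathway restrains growth through the coactivator YAP, and of 21 of its genes and targets 8 were higher (38.1%) and 5 lower, median 0.22. Ajuba, a scaffold that holds back the LATS kinases, stood at 10.47, 10.74 and 10.14 at D0 and at 13.21, 13.55 and 13.34 at D8, and rose by 2.92 (limma adjusted p = 4.0e-08). Ankrd1, a YAP target of muscle and stretched cells, rose by 2.55 with wide spread, from 6.62 on s1H to 8.86 on s3A at D0. Not every target went up. Gadd45a, a stress-induced growth arrest gene that is also on the p53 list, fell by 3.12, Nt5e, the ectonucleotidase CD73, by 1.87, F3, the initiator of coagulation known as tissue factor, by 1.45 and Crim1, a membrane-bound BMP modulator, by 2.69.

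Aldo-keto and carbonyl reductases, which reduce aldehydes and ketones, had 10 of 27 higher (37.0%) and 3 lower, though their median of 0.02 turned negative with 3 of the 4 other normalizations. Cbr1, a carbonyl reductase, rose by 2.35 (limma adjusted p = 2.9e-07), and Akr1b8, an aldose reductase relative, by 2.71 with D8 levels of 11.39, 10.48 and 9.09. Akr1c3 rose at least 3.65-fold and Akr1c15 fell by 3.29, but Akr1c genes are alike in sequence and hard to separate by probe. Semaphorins, plexins and neuropilins, a guidance system also used in lung branching, had 8 of 23 higher (34.8%) and 5 lower, and a median at 0 whose sign depends on the normalization. The ligand Sema4g rose by 2.48. The receptors Nrp1, at 12.07, 13 and 11.28 at D0 and at 8.61, 8.87 and 7.89 at D8, and Plxna2 fell by 3.66 and 3.38 (limma adjusted p = 5.9e-08 and 1.9e-06), and the membrane-bound ligands Sema4f and Sema4a by 2.21 and 1.78. The genes of this family that fell by most were thus receptors, and Sema3b, which rose by most, is a ligand.

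Sphingolipid and ceramide genes had 10 of 30 higher (33.3%) and 6 lower, with a median of -0.08 that turned positive with 3 of the 4 other normalizations. The increases included genes of lysosomal breakdown and a receptor. Psap, the precursor of the saposins, stood at 8.85, 8.73 and 8.24 at D0 and at 11.31, 10.97 and 10.53 at D8, a rise of 2.33 (limma adjusted p = 6.1e-07). Galc, which degrades galactosylceramide, rose by 2.39, Gm2a, the activator of ganglioside breakdown, by 1.30 and S1pr2, a receptor for sphingosine 1-phosphate, by 2.23. Of the genes that fell, Ugcg makes glucosylceramide, Sgms1 makes sphingomyelin and Sphk1 makes sphingosine 1-phosphate, and their changes were -1.25, -1.09 and -2.59. Degs1, a desaturase of ceramide synthesis, kept its level, with a change of -0.13 and a 95% confidence interval of -0.46 to 0.20.

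Vesicle traffic was covered by a pair of families. Of 43 genes for COPI and COPII coats, cargo receptors and the Sec61 channel, 14 were higher (32.6%) and 4 lower, and 10 kept their level within 0.5. Without s3A or without s1G only 8 were higher. Tmed4 and Tmed3, cargo receptors of early vesicles, rose by 1.48 and 1.44 and Sec11a, the signal peptidase subunit, by 1.38, whereas Tmed5 fell by 1.74. Ssr2, Sec62 and Sar1a, of protein entry into the endoplasmic reticulum and of COPII budding, changed by -0.05, 0.04 and -0.01, each with an interval inside -0.5 to 0.5. SNAREs and synaptotagmins, the proteins of membrane fusion, had 15 of 49 higher (30.6%) and 5 lower, median 0.34, or 0 with bounds. Stx7, a syntaxin of late endosomes, stood at 10.61, 10.65 and 10.20 at D0 and at 12.43, 12.61 and 12.32 at D8, and rose by 1.96 (limma adjusted p = 2.4e-07). Vamp5 rose by 2.27 and Bet1, of transport to the Golgi, by 1.48. Those that fell by most, Sytl5 and Sytl1, are synaptotagmin-like proteins that bind Rab27 on secretory granules, and they went from detection on 2 D0 arrays to none.

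In septins, plakins and lamins 4 of 13 were higher (30.8%) and 2 lower. Septin8, a filament-forming GTPase, stood at 7.68, 7.89 and 7.90 at D0 and at 10.30, 10.36 and 9.87 at D8 and rose by 2.35 (limma adjusted p = 6.7e-07). The nuclear lamina genes Lmnb2 and Lmna fell by 1.91 and 1.22, and Plec, the cytolinker plectin, kept its level at -0.07 (interval -0.44 to 0.29). Mitochondrial ribosomal proteins, which translate the few proteins encoded in mitochondria, had 18 of 59 higher (30.5%), 3 lower and 10 within the margin, with a median of 0.25. The other normalizations gave 18 to 29 higher, 3 to 7 lower, 16 to 31 within the margin and medians of 0.16 to 0.34. Their rises were small, the greatest being those of Mrps24 (1.36), Mrpl36 (1.17), Mrpl22 (1.17) and Mrpl49 (1.14).

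**Figure D3:**
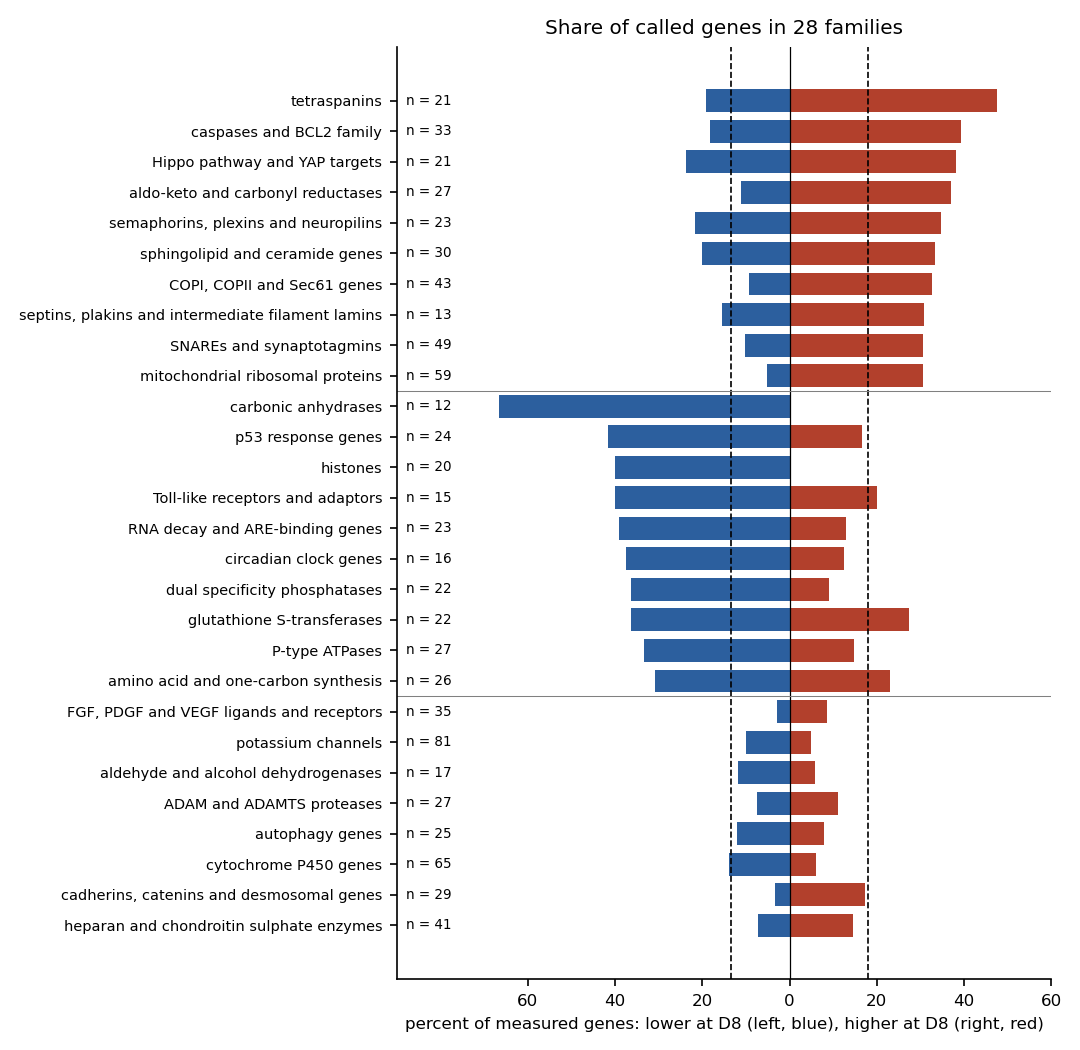
Percent of measured genes lower at D8 (left, blue) and higher at D8 (right, red) in 28 families, with the number of genes measured beside each name and dashed lines at the shares of all named genes, 13.4% lower and 17.9% higher. The top block holds the families with the highest share higher, the middle block those with the highest share lower and the bottom block those with the lowest share called, so the blocks differ by the way they were picked.

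Carbonic anhydrases, which interconvert carbon dioxide and bicarbonate, had the highest share of decreases, 8 of 12 (66.7%) with none higher, or 5 lower and 1 higher without s1J. Their median was -0.73, or -0.25 with bounds, and it was negative with each normalization tried. Of the 12, 6 were detected on no array, and the other normalizations called 5 to 7 lower and none higher. Besides Car8, Car3 stood at 11.36, 11.58 and 10.48 at D0 and at 9.24, 7 and 6.09 at D8, with s1G above the other D8 arrays, and fell by 3.70 (limma adjusted p = 0.00025). The mitochondrial enzymes Car5b and Car5a fell by 1.72 and 1.10, and 2 of the 8, detected on neither day, have no fold. Histone genes had 8 of 20 lower (40%) and none higher, median -0.38, or 0 with bounds, since 11 were detected on no array. H2ax, the variant that marks DNA breaks, stood at 14.52, 13.88 and 13.79 at D0 and at 12.62, 12.52 and 12.45 at D8, and fell by 1.54 (limma adjusted p = 1.5e-05). Hist2h3c2 and Hist1h2bd fell by 3.16 and 2.47, with the reserve that histone copies are close to identical. With each of 4 other normalizations 8 histone genes were lower and 1 was higher.

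Dual specificity phosphatases, which switch off MAP kinases, had 8 of 22 lower (36.4%) and 2 higher, median -0.28, or -0.02 with bounds. Dusp10, which acts on p38 and JNK, stood at 10.81, 11.46 and 11.52 at D0 and at 7.03, 6.90 and 8.24 at D8 and fell by 3.87 (standard error 0.23, limma adjusted p = 3.5e-08). Dusp5, a nuclear ERK phosphatase, fell by 4.12, and Dusp9 and Dusp4 fell at least 9.07- and 2.75-fold. RNA decay and ARE-binding genes, which shorten the life of cytokine and immediate early messages, had 9 of 23 lower (39.1%) and 3 higher, median -0.32, or -0.03 with bounds. Zfp36, or tristetraprolin, stood at 14.02, 14.90 and 13.71 at D0 and at 11.49, 11.91 and 12.26 at D8. It fell by 2.32, its relative Zfp36l1 by 2.26 and Zc3h12a, the RNase regnase-1, by 3.82, while the deadenylases Cnot8 and Parn rose by 1.80 and 1.31. Pan3, Cnot2 and Cnot3, of the general deadenylation machinery, kept their level, at -0.01, 0.05 and -0.03. Of the members named, those that fell by most bind chosen messages, and those within the margin belong to the common machinery.

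Of 24 p53 response genes 10 were lower (41.7%) and 4 higher, median -0.26, or -0.05 with bounds. Gadd45a stood at 13.71, 13.59 and 13.67 at D0 and at 10.70, 10.65 and 10.27 at D8, and fell by 3.12 (limma adjusted p = 2.7e-08), Tp53inp1, a stress protein, fell by 1.55, and Plk2, a kinase, and Pmaip1 were lower and detected on 2 D0 arrays and none at D8. Sesn1, a sestrin that restrains mTORC1, and Ei24 rose by 1.53 and 1.10, and Fas, the death receptor, rose at least 1.33-fold. Toll-like receptors and their adaptors had 6 of 15 lower (40%) and 3 higher, and only 1 higher without s1J. Lbp, which hands lipopolysaccharide to CD14, fell at least 6.76-fold, the kinase Irak2 and the adaptor Myd88 fell by 2.70 and 1.86, and Tlr6, a receptor for bacterial lipopeptides, rose by 1.20. Macrophages express such genes too, and of the 11 macrophage and leukocyte markers 7 were higher and 1, Cd14, was lower. The part of these cells in the values of the family was not tested.

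Circadian clock genes had 6 of 16 lower (37.5%) and 2 higher, median -0.26, or -0.10 with bounds. Nr1d1, the repressor REV-ERB alpha, stood at 11.88, 11.62 and 11.30 at D0 and at 7.35, 7.50 and 8.09 at D8, and fell by 3.95 (standard error 0.25, limma adjusted p = 5.6e-08). Nfil3, another repressor of the clock, fell by 3.11, and the core repressors Per2 and Cry1 by 1.51 and 1.46, Per2 from 12.49, 12.12 and 10.86 at D0 to 10.07, 10.55 and 10.31 at D8. Per1, a relative of Per2, rose by 1.54, and Tef, an output factor of the clock, at least 1.35-fold. The labels give no hour of harvest, so time of day and time in culture cannot be told apart for these genes.

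Glutathione S-transferases, which conjugate electrophiles, split, with 8 of 22 lower (36.4%), 5 without s1H, without s1I or without s1G, and 6 higher (27.3%). Gstp1, the main isoform of lung epithelium, stood at 11.50, 10.89 and 11.21 at D0 and at 13.94, 13.89 and 13.28 at D8, a rise of 2.51 (limma adjusted p = 6.7e-07), and Gsto1 rose by 1.86 and Gsta4 by 1.80. Gstm5 and Gstt1 fell by 2.34 and 1.67 and Gsta3 at least 3.05-fold, and isoforms of 1 class are similar enough to blur each other. Amino acid and one-carbon enzymes split as well, with 8 of 26 lower (30.8%) and 6 higher, or 3 without s1H, s1G or s1J. Both arginases changed, in opposite directions. Arg1, the cytosolic form, stood at 9.67, 9.93 and 9.50 at D0 and at 11.69, 12.21 and 11.56 at D8 and rose by 2.12 (limma adjusted p = 1.2e-05), and Arg2, the mitochondrial form, fell by 1.67 (limma adjusted p = 0.0047). Ass1, of arginine synthesis, fell by 2.52, Gpt, an alanine aminotransferase, by 3.09 and Cth, which makes cysteine, by 3.13, while Got1, an aspartate aminotransferase, kept its level at 0.04 (interval -0.31 to 0.39).

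P-type ATPases and the FXYD proteins that tune the sodium pump had 9 of 27 lower (33.3%) and 4 higher, median -0.36, or 0 with bounds. The FXYD genes split. Fxyd3 stood at 13.47, 13.84 and 13.76 at D0 and at 10.58, 10.73 and 10.58 at D8 and fell by 3.06 (standard error 0.17, limma adjusted p = 1.8e-08), and Fxyd4 fell at least 2.49-fold. Fxyd5, also called dysadherin, rose by 2.79, with D8 levels of 11.55, 10.85 and 9.49, and Fxyd2 rose at least 1.61-fold. Atp1b1, the beta 1 subunit of the sodium pump itself, lay inside the margin, at 14.19, 13.72 and 14 at D0 and at 14.04, 14.05 and 14.05 at D8, a change of 0.08 (interval -0.29 to 0.45) that was 0.35 with quantile normalization, where the interval left the margin. Atp2a3, a calcium pump of the endoplasmic reticulum, fell by 4.25.

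The families with the lowest shares called, against 31.2% of all named genes, are given next, and the difference was not tested. FGF, PDGF and VEGF ligands and receptors had 4 of 35 called (11.4%), among them Pdgfa, at 13.14, 13.31 and 12.69 at D0 and at 14.28, 14.49 and 14.18 at D8, which rose by 1.27 (limma adjusted p = 6.2e-05), and Fgfr2, a receptor of lung epithelium, which fell by 1.45. Fgfr3 changed by -0.08 and Vegfb by 0.02, both inside the margin. Many members of such families were dim, 23 of the 35 here and 58 of 81 potassium channels being detected on no array, so a low share says little about them. Potassium channels had 12 of 81 called (14.8%), 8 of them lower, or 5 without s3A or s1J. Among the members lower at D8, Kcnq1, a channel of epithelial secretion, stood at 10.98, 11.03 and 10.71 at D0 and at 7.33, 6.73 and 6.80 at D8 and fell by 3.95 (limma adjusted p = 1.6e-08). Its partner subunit Kcne2 fell at least 17.5-fold and Kcnmb2, a subunit of calcium-activated channels, by 4.16.

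Cytochrome P450 genes, with 13 of 65 called (20%), 46 of the 65 on no array, held some of the strongest changes in both directions. Besides Cyp1b1, Cyp4b1 and Cyp3a9, Cyp2c23, an epoxygenase of arachidonic acid, fell by 4.98, Cyp2f4, an airway marker, at least 2.54-fold, and Cyp1a1, like Cyp1b1 a target of the aryl hydrocarbon receptor, rose at least 1.73-fold. Por, the reductase that feeds electrons to P450 enzymes, kept its level at -0.02 (interval -0.38 to 0.34). Heparan and chondroitin sulphate enzymes had 9 of 41 called (22%), led by Sulf2, which trims heparan sulphate outside the cell, at 11.11, 11.45 and 10.68 at D0 and at 14.07, 14.27 and 13.85 at D8. It rose by 2.98 (standard error 0.16, limma adjusted p = 1.2e-08), Ndst1 and Hyal2 rose by 1.68 and 1.54, and Chst1, a sulphotransferase, fell by 3.23. Cadherins, catenins and desmosomal genes had 6 of 29 called (20.7%), 5 of them higher. Jup, or plakoglobin, rose by 0.97 on slide 1 and on slide 3 alike, Ctnnd1, or p120 catenin, by 1.10 and Ctnnal1 by 1.48, Evpl, encoding envoplakin, fell by 1.01, and Pkp2, a desmosomal plaque protein, kept its level at -0.05.

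Aldehyde and alcohol dehydrogenases had 3 of 17 called (17.6%), with Aldh1a1, which makes retinoic acid, lower by 2.05 in limma (adjusted p = 0.00054). ADAM and ADAMTS proteases had 5 of 27 (18.5%), with Adamts9 falling by 2.08 and Adam15 rising by 0.91. Autophagy genes had 5 of 25 (20%) although 17 were detected on all 6 arrays. Wipi1, of the early phagophore, rose by 1.31 (limma adjusted p = 8.6e-06), and Gabarapl2, Wipi2 and Atg12 fell by 0.88, 0.83 and 0.72. The low share depended on the normalization, since the others called 6 to 9 autophagy genes higher against 2 here and 3 to 4 lower against 3, and 1 was higher when s1H, s3A, s1J or s3I was left out.

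Genes whose level did not change were sought by interval, as a missed threshold does not show equal levels. Of 1333 bright genes, the brightest 10% and detected on all 6 arrays, limma called 636 (47.7%), 427 of them higher (32%) and 209 lower, and for 221 (16.6%) the 95% confidence interval of the change lay inside -0.5 to 0.5, against 783 of all 13337 named genes (5.87%). That contrast turned with each of the 4 other normalizations, which put 312 to 438 bright genes and 4741 to 8217 named genes inside the margin. The remaining 476 were neither. The count of 221 was 147 without s1H, 126 without s1G, 122 without s1J and 135 without s3I. Bright genes as a whole had a median change of 0.17, and of 0.23 to 0.36 with the other normalizations, so that equal levels depend on the scaling by about that much. The 30 brightest of the 221 were of several kinds. S100a11, a calcium-binding protein, stood at 15.33, 15.14 and 15.56 at D0 and at 15.33, 15.30 and 15.30 at D8. Such levels are close to the D0 means of Sftpa1 (15.55) and Scgb1a1 (15.54). Whether signals this bright still follow the amount of RNA was not tested. Prdx1, a peroxiredoxin, changed by -0.15 (interval -0.47 to 0.17), Cfl1, the actin-severing cofilin, by -0.07 (interval -0.37 to 0.23) and P4hb, a protein disulphide isomerase of collagen folding, by -0.06 (interval -0.44 to 0.32). Energy metabolism gave Atp5f1b, Atp5po and Atp5f1a of ATP synthase, at -0.13, -0.05 and -0.08, and Cox6a1 and Cox4i1 of cytochrome c oxidase, at -0.09 and -0.15. For 14 of the 30, among them all those named so far in this group, the interval stayed inside the margin with each of 4 other normalizations.

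Epithelial genes stood among the unchanged as well. Epcam, a surface marker of epithelial cells, had levels of 14.98, 14.74 and 15.25 at D0 and 15.04, 14.88 and 14.99 at D8, a change of -0.02 (interval -0.36 to 0.32). Ctnna1, the catenin that links cadherins to actin, changed by 0.08, Spint2, an inhibitor of epithelial surface proteases, by 0.04, Alcam, an adhesion molecule, by 0.09 and Lgals3, or galectin-3, by 0.06, in contrast to the rise of Lgals1. The intervals of these 5 genes left the margin with at least 1 other normalization. Map1lc3b, the LC3 protein of autophagosomes, and Calr, the chaperone calreticulin, changed by 0.16 and 0.13, and by 0.41 and 0.42 with quantile normalization, their intervals too leaving the margin with at least 1 other normalization.

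**Figure D4:**
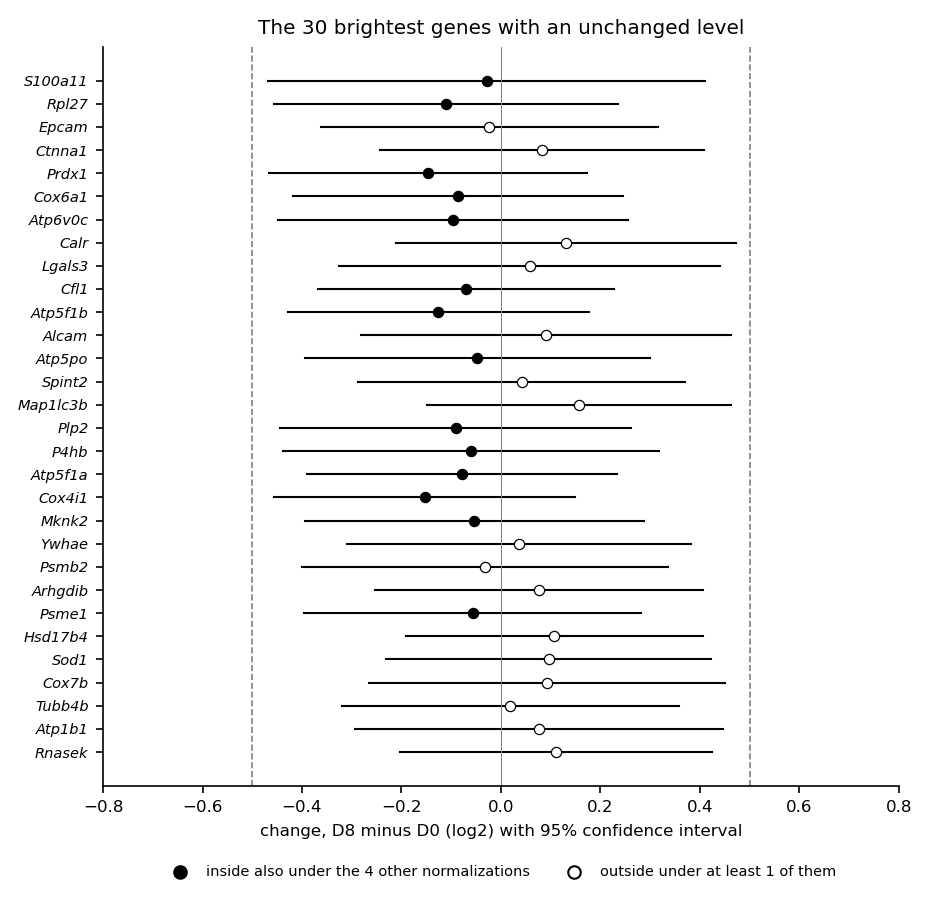
Change from D0 to D8 (log2, points) with its 95% confidence interval (lines) of the 30 brightest named genes whose interval lies inside -0.5 to 0.5 (dashed lines), brightest at the top. Filled points mark 14 genes that stay inside with each of 4 other normalizations and open points the other 16.

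Bright members of some complexes were grouped after their values had been seen and are read against the 32% of bright genes that were higher. None of 52 bright cytosolic ribosomal protein genes was higher, 12 were lower, 2 were inside the margin and 38 were neither, with a median of -0.43. That median was -0.14 to -0.34 with the other normalizations, under which 2 to 16 were lower and none was higher. They put 9 to 42 of the 52 inside the margin, 42 with quantile normalization and 40 with neqc. The sign of the median thus held, while its size and a fall of the group depended on the normalization. NADH dehydrogenase subunits had 5 of 22 higher and 1 lower (median 0.29) and proteasome subunits 8 of 27 higher and 1 lower (median 0.31), neither share above that of bright genes. The other normalizations called 12 to 17 of the former and 13 to 17 of the latter higher, and 539 to 679 of all 1333 bright genes. None of 7 cytochrome c oxidase subunits was called, 5 lay inside the margin and the median was 0.07, although other normalizations called 1 to 4 of them higher. Annexins, which bind membranes in the presence of calcium, had 4 of 7 higher and 1 lower, with a median of 0.96, well outside the 0.17 of bright genes at large.

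The changes on the slides were compared last. On slide 1 a change rests on 2 arrays per day and on slide 3 on 1. Over all 15 arrays the level itself differed between slide 1 and the other slides for 8155 probes (36.2%). limma called a difference between the slides for 234 probes (1.04%). The change on slide 3 minus that on slide 1 was positive for 120 and negative for 114. Of the 234, 187 were detected on none of the 6 arrays, and only 26 were also called between D0 and D8. Phgdh, the first enzyme of serine synthesis and detected on all 6 arrays, stood at 6.95 and 6.56 at D0 and at 10.09 and 9.30 at D8 on slide 1, and at 8.17 at D0 and 7.72 at D8 on slide 3. Its change was 2.94 on slide 1 and -0.45 on slide 3, the difference of -3.39 passed (limma adjusted p = 0.041), and its call over both slides (adjusted p = 0.025) was lost when any of the 4 slide 1 arrays was left out. Syt12, a synaptotagmin detected only at D8, had fitted changes of 2.11 on slide 1 and 4.17 on slide 3.

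**Figure D5:**
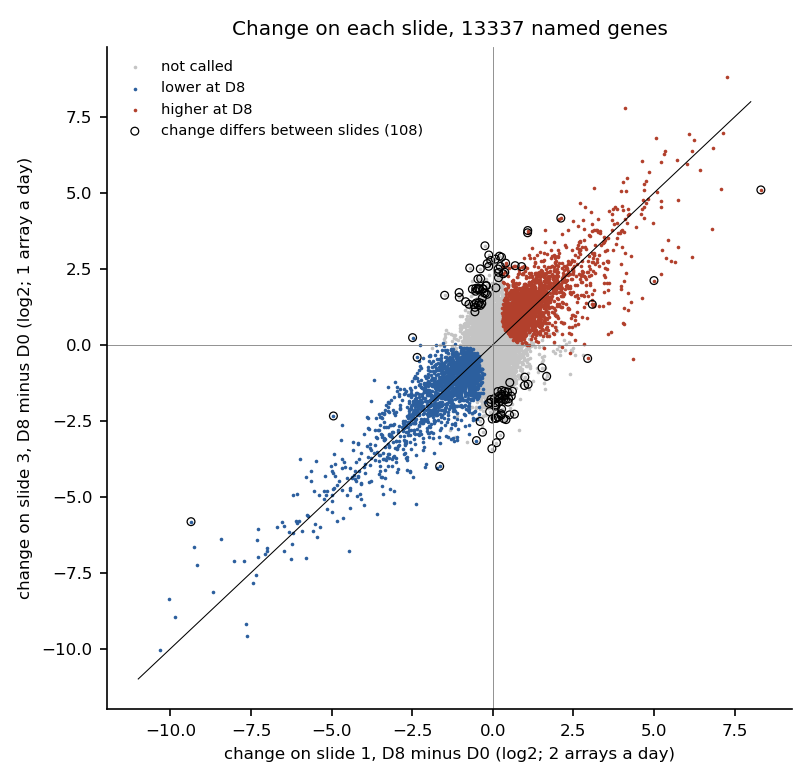
Change from D0 to D8 on slide 3 (log2, 1 array a day, vertical axis) against the change on slide 1 (log2, 2 arrays a day, horizontal axis) of 13337 named genes, with genes called higher in red, lower in blue and others in grey, and the line of equal change. Circles mark 108 genes read on a probe whose change differed between the slides, and they lie away from that line.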

How the data were processed

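Illumina RatRef-12 arrays of 15 samples were used, with groups taken from the labels. The deposited raw table holds the intensity that BeadStudio gave each probe and a detection p-value against the negative controls of the array, both made by the authors. The authors also deposited log2 values normalized by VSN in lumi (R 2.11.1 and limma, per the submitters' processing notes). Here VSN was refitted to the raw intensities with a re-implementation (trimming quantile 0.9, 7 rounds, 5 slices), and the authors' values served as an alternative. All 15 arrays were fitted in limma 3.58.1 (R 4.3.3) with day and slide 1 against slides 2 and 3, and p-values were Benjamini-Hochberg adjusted over 22523 probes. Of these, 13793 had 1 symbol and 8730 none, 13752 symbols were updated through RefSeq, and for 425 genes with over 1 probe the probe with the highest mean raw signal stood for the gene. The members and gene lists were chosen with earlier results of these data known. Named genes were the 25 largest changes in each direction among called genes detected on all 6 arrays without overlap. The 12 largest bounds in each direction among called genes and the 30 brightest unchanged genes were added. From each family up to 4 called members per direction and up to 3 unchanged members were named. The last were 10 genes with the smallest p for a slide difference. AT2, AT1 and TGFB lists were left out. Families with at least 8 genes measured were described where they had the highest shares higher (10 families) or lower (10 families) or the lowest share called (8 families). Alternatives were other normalizations, slide terms, array subsets and filters on dim probes. The number of arrays limits the precision. The fit was tested on simulated data.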

Additional observations from a re-analysis of the deposited data

Results flagged for a closer look

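The change from D0 to D8 differed between slide 1 and slide 3 by limma's interaction term for 234 probes, 111 of them named. The change on slide 3 minus that on slide 1 was 3.50 for Gldc, 2.68 for Kbtbd3, 3.08 for Fmo1, -2.95 for Adam11, 2.30 for Dtd2, 2.60 for Rnft2, 3.12 for Hormad1, 2.71 for Barx1, -2.42 for Lmx1a and 2.84 for F13b, and 2.06 for Syt12 and -3.39 for Phgdh. Of the 234 probes, 187 were detected on none of the 6 arrays and 5 on all, and 173 had opposite signs on the slides. The single D0 array of slide 3, s3A, was the lowest of the 6 for 108 of them and the highest for 91. On slide 3 each day has 1 array, so the spread within slide 3 was not measured.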

How the results depend on the processing

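The count of 5689 probes called (4165 named genes) was within 1.5 times of that value with every alternative run except the 4 slide 1 arrays alone (3092 probes, 2305 named genes) and stricter definitions of a call. It was 3128 probes and 2342 named genes with a change of at least 1 required and 2463 and 1897 against a margin of 0.5. Leaving out 1 array gave 4561 to 5580 probes and 3377 to 4095 named genes. The 221 bright genes with an unchanged level were 107 with no slide term, 37 with only the 6 D0 and D8 arrays, 0 with only the 4 slide 1 arrays, 343 with the authors' values, 438 with quantile normalization, 370 with neqc, 347 with trended and robust eBayes, 835 with a margin of 1, 345 among the brightest 20%, and 122 to 188 without 1 array. Leaving out both slide 3 arrays, chosen after seeing the data, gave 121. The 234 probes with a slide difference were 16 with the authors' values and 1 among probes detected on at least 3 arrays, so they depend on the treatment of dim probes. Of 253 named genes called, 21 lost the call with no slide term and 31 with only the 4 slide 1 arrays, and none turned its direction. Of 60 named unchanged genes, the interval of 28 left the margin with no slide term, of 46 with only the 6 D0 and D8 arrays, of 60 with only the 4 slide 1 arrays, of 7 to 18 with quantile, neqc or median scaling and of 15 to 29 without 1 array. No paired analysis was possible because the labels give no replicate numbers that tie D0 to D8 arrays.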
